A study of Arabidopsis thaliana with 2 samples.

Results

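The 9 nuclear genes for the major light-harvesting proteins of photosystem II, LHCB1.1 to LHCB1.5, LHCB2.1 to LHCB2.3 and LHCB3, were followed in Arabidopsis thaliana seedlings of a whitening mutant and its wild type. The members were chosen by gene identifier, and all 9 were found among the 33565 rows of the deposited expression table. RNA was sequenced from shoots of 7-day-old seedlings of the Col-0 background, either wild type or the mutant wn1, which the labels call whitening without naming the affected gene. Both genotypes grew on solid medium at 22 °C in days of 16 h light and 8 h dark without treatment, and cotyledons are named beside shoots as the tissue. Each genotype had 1 library, so no difference below has a replicate check, a standard error or a p-value. The sources used here give neither the hour of harvest nor the number of seedlings behind a library.

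These genes encode the proteins of the trimeric antenna LHCII, which binds chlorophyll a and chlorophyll b, collects light and passes the energy to the photosystem II core. LHCB1 is the most abundant protein of the trimers. LHCB1 and LHCB2 carry phosphorylation sites used when part of the antenna moves to photosystem I, and LHCB3 lacks such a site. The genes are transcribed in the nucleus under control of light, the circadian clock and signals from the plastid, and the proteins are imported into the chloroplast as precursors.

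The summed level of the 9 genes was nearly equal in the libraries as deposited, but its make-up differed between the subfamilies. The unit is FPKM, fragments per kilobase of transcript and scaled to the mapped fragments of the library, and a difference is log2((wn1 FPKM + 1)/(wild type FPKM + 1)). LHCB2 summed to 6719 FPKM in the wild type and 3954 in wn1, and differed by -0.76, with all 3 of its members lower in wn1. Of all genes with a mean of at least 1 FPKM, 47.1% were lower in wn1. Of nuclear protein-coding genes with a mean of at least 1000 FPKM, 66.7% were. LHCB3 was lower too, at -0.38. LHCB1 summed to 24609.8 FPKM in the wild type and 28019.6 in wn1, and differed by 0.19, which became -0.82 when both columns were brought to a common total over all rows. In that all-row scaling the plastid transfer RNA row ATCG00010, with 1005100 FPKM or 54.1% of the wn1 total and 0 in the wild type, sets the scale and moves the median of all genes from 0.03 to -0.83. The ratio of LHCB1 to LHCB2 within a library does not depend on any such scaling, and it was 3.66 in the wild type and 7.09 in wn1.

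The subfamilies differ more in sequence from each other than their members do among themselves. Coding sequences, read from the RefSeq annotation of TAIR10.1, were 87.0% to 96.4% identical between LHCB1 members and 84.7% to 96.6% between LHCB2 members. Between LHCB1 and LHCB2 they were 69.7% to 73.6% identical, and LHCB3 shared 63.0% to 66.3% of bases with the other 8. The stretch of 60 coding bases below is the one in which the most positions, 15, separate every LHCB1 member from every LHCB2 member. Over the gap-free coding alignment 132 of 765 positions separate LHCB1 from LHCB2, so this stretch is a best case. Capitals mark bases that differ from LHCB1.3, the member with the highest FPKM. On TAIR10.1 the stretch lies at chr1:10475690-10475749 (minus strand) for LHCB1.1, chr1:10473044-10473103 (minus) for LHCB1.2 and chr1:10478214-10478273 (plus) for LHCB1.3. For LHCB1.4 it lies at chr2:14524958-14525017 (plus), for LHCB1.5 at chr2:14523317-14523376 (minus) and for LHCB3 at chr5:22038656-22038715 (plus). In LHCB2 it spans an intron that is left out of the sequence, at chr2:1824047-1824191 (minus) for LHCB2.1, chr2:1800034-1800189 (minus) for LHCB2.2 and chr3:10256145-10256323 (plus) for LHCB2.3.
LHCB1.1: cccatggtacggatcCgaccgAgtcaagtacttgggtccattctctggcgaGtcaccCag
LHCB1.2: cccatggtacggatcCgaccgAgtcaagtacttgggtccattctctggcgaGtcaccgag
LHCB1.3: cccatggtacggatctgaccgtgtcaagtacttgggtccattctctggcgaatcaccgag
LHCB1.4: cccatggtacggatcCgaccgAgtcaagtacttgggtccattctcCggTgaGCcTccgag
LHCB1.5: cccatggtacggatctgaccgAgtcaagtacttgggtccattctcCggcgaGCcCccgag
LHCB2.1: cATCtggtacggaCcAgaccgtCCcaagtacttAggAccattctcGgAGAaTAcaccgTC
LHCB2.2: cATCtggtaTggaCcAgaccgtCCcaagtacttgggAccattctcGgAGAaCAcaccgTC
LHCB2.3: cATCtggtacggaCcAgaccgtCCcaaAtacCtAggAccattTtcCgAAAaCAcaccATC
LHCB3: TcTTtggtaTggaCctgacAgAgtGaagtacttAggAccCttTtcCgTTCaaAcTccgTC

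LHCB1.1 differed from LHCB1.3 at 4 of these 60 bases and LHCB1.2 at 3, while LHCB2.1 and LHCB2.2 differed at 17 each, LHCB2.3 at 21 and LHCB3 at 20. Over the whole coding sequence LHCB1.1 and LHCB1.2 differed at 35 of 804 bases and encode the same 267 residues, and LHCB1.3 differed from each of them at 1 residue. LHCB1.4 was the most distant of its subfamily from LHCB1.1 to LHCB1.3, with 11 or 12 residues different from them. LHCB2.1 and LHCB2.2 differed at 27 of 798 bases and 6 residues, and LHCB2.3 differed from them at 113 and 122 bases. In the matrix of coding identities the subfamilies stand as blocks.

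**Figure D1:**
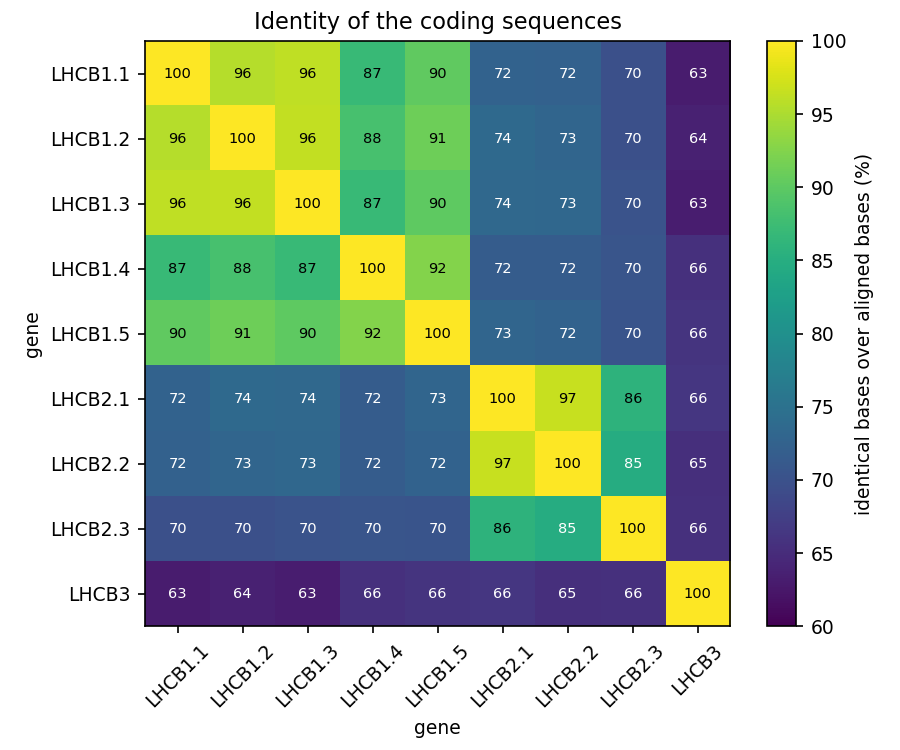
Percentage of identical bases between the coding sequences of the 9 genes, over aligned bases of each pair, on a colour scale from 60% to 100%. Pairs within LHCB1 or LHCB2 lie between 84.7% and 96.6%, pairs of LHCB1 with LHCB2 between 69.7% and 73.6%, and pairs with LHCB3 between 63.0% and 66.3%.

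How much of each transcript recurs exactly in another gene was counted from stretches of 50 and 100 bases. The search took 1 annotated mRNA per gene, its sense strand and exact matches only, and left out noncoding RNAs. No stretch of 50 bases of any LHCB1 transcript occurred in an LHCB2 or LHCB3 transcript or in another mRNA searched. The longest exact run was 25 bases between LHCB1 and LHCB2 and 37 between LHCB1 and LHCB3. LHCB1 and LHCB2 thus share no exact stretch of that length, in the 1 transcript per gene examined. Within subfamilies, 10.6% to 20.5% of the 50-base stretches of an LHCB1 member recurred in another LHCB1 member. The share was 22.7% for LHCB2.1 and 28.2% for LHCB2.2, and 0% for LHCB2.3 and for LHCB3. With stretches of 100 bases the shares fell to between 1.51% and 4.44% in LHCB1, and were 9.87% for LHCB2.1 and 12.4% for LHCB2.2. The sources used here give neither the read length nor the way the authors divided shared reads, so values of single LHCB1 members and of LHCB2.1 and LHCB2.2 are less certain than the subfamily sums.

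The genes also differ in structure and place. The LHCB1 genes have 1 exon, the LHCB2 transcripts 2 and LHCB3 3 in the annotation used. LHCB1.1 (AT1G29920, CAB2 in the table, chr1:10474656-10475969, minus strand), LHCB1.2 (AT1G29910, CAB3, chr1:10472280-10473502, minus) and LHCB1.3 (AT1G29930, CAB1, chr1:10477885-10479114, plus) are consecutive genes, and LHCB1.1 and LHCB1.3 point away from each other across 1915 bases. LHCB1.4 (AT2G34430, LHB1B1, chr2:14524607-14525918, plus) and LHCB1.5 (AT2G34420, LHB1B2, chr2:14522524-14523568, minus) also point away from each other, across 1038 bases. LHCB2.1 (AT2G05100, chr2:1822990-1824480, minus) and LHCB2.2 (AT2G05070, chr2:1799234-1800472, minus) lie 22517 bases apart. LHCB2.3 (AT3G27690, chr3:10255941-10257229, plus, for the transcript that matches the table) and LHCB3 (AT5G54270, chr5:22038165-22039568, plus) stand alone.

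Depth was not given with the values and was read from the steps between low FPKM values, which gave about 12840000 fragments for the wild type and 15640000 for wn1. At that depth each member stood for at least 16048 fragments in either library, so counting error is small beside the difference of each member, though not beside that of the sum of all 9, and the 95% intervals below are exact binomial ones that cover counting error only. They say nothing about the spread between plants, which was not measured. Markers set the tissue beside its label. The mesophyll genes RBCS1A, RCA, CA1 and GAPA had between 1902 and 19784 FPKM in the wild type and between 2431 and 13647 in wn1, with a median difference of -0.47. The 6 root markers were present at 6.01 to 51.3 FPKM in the wild type and 5.97 to 26.6 in wn1, the 4 seed markers summed to 85.8 and 14.3 FPKM, and the 2 phloem markers to 89.7 and 39.2. The 2 epidermal and 2 guard cell markers lay within 1.5-fold, the 3 xylem markers summed to 115 FPKM in the wild type and 91.3 in wn1, and of the 3 shoot meristem markers STM was at 1.65 and 2.15, CLV3 was listed at 0 in wn1 and WUS was listed at 0 in both. In bulk RNA, fewer cells of a type and less RNA per cell cannot be told apart, and the part of these shifts in the antenna genes was not tested.

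Among the 9 genes LHCB1.3 had the highest level in both libraries, with 11554 FPKM in the wild type and 13745 in wn1. It ranked 2 among all nuclear protein-coding genes in each library. Its difference was 0.25 (counting interval 0.24 to 0.26), which turned to -0.76 in the all-row scaling. LHCB1.5 came next, with 5233 FPKM in the wild type and 5838 in wn1, and differed by 0.16, which was -0.85 in the all-row scaling. Both genes were thus a little higher in wn1 as deposited, and 70.9% and 62.6% of all 18788 genes tested had a lower difference than theirs.

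LHCB1.1 had 4236 FPKM in the wild type and 3786 in wn1, and differed by -0.16 (counting interval -0.18 to -0.15). LHCB1.2 had 2047 and 1645, a difference of -0.32 (-0.34 to -0.29). These neighbours, which encode the same protein, were both slightly lower in wn1, while LHCB1.3 beside them was slightly higher before the all-row scaling. The ratio of LHCB1.3 to LHCB1.1 was 2.73 in the wild type and 3.63 in wn1, and that of LHCB1.3 to LHCB1.2 was 5.65 and 8.36. Summed over the 3 genes of this cluster, where reads could have been exchanged among its members, the level was 17837 FPKM in the wild type and 19176 in wn1.

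LHCB1.4 stood apart from its subfamily. It had 1540 FPKM in the wild type, the lowest level of the 9 genes there, and 3006 in wn1, the fourth highest. Its difference was 0.96 (counting interval 0.94 to 0.99), a ratio of 1.95, and 767 of the 18788 genes tested had a higher one. In the all-row scaling it was -0.04, against a median of all genes of -0.83. Its divergent neighbour LHCB1.5 did not follow: LHCB1.5 exceeded LHCB1.4 by 3.40-fold in the wild type and by 1.94-fold in wn1. LHCB1.4 has 13.7% of its 50-base stretches exactly in common with other LHCB1 transcripts, and shares an exact run of 122 bases with LHCB1.5. How reads were divided between LHCB1.4 and the other members was not tested.

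The LHCB2 genes were lower in wn1 as a group. LHCB2.1 had 2596 FPKM in the wild type and 1791 in wn1, and differed by -0.54 (counting interval -0.56 to -0.52). LHCB2.2 had 2493 and 1287, a difference of -0.95 (-0.98 to -0.93). LHCB2.3 had 1630 and 877, a difference of -0.89 (-0.92 to -0.87). All 3 were below 0 in every scaling tried, with values from -0.41 to -1.96. Of all genes tested, 11.4%, 4.01% and 4.65% had a lower difference than LHCB2.1, LHCB2.2 and LHCB2.3. Nuclear protein-coding genes with a mean of at least 1000 FPKM, which include these, had a median of -0.29, and 24.1% were at least 1.5-fold lower. LHCB2.3, which shares no exact 50-base stretch with another mRNA searched, showed a difference close to that of LHCB2.2. LHCB2.1 and LHCB2.2, which share exact stretches of up to 152 bases, summed to 5089 FPKM in the wild type and 3077 in wn1. Their order in level was the same in both libraries, and LHCB2.1 made up 38.6% of the subfamily in the wild type and 45.3% in wn1.

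LHCB3 had 2432 FPKM in the wild type and 1872 in wn1, and differed by -0.38 (counting interval -0.40 to -0.36). It shares no exact 50-base stretch with another mRNA searched. It lay between the subfamilies: LHCB1 exceeded LHCB3 10.1-fold in the wild type and 15.0-fold in wn1, while LHCB2 exceeded it 2.76-fold and 2.11-fold. The plot of all 9 genes shows the levels side by side.

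**Figure D2:**
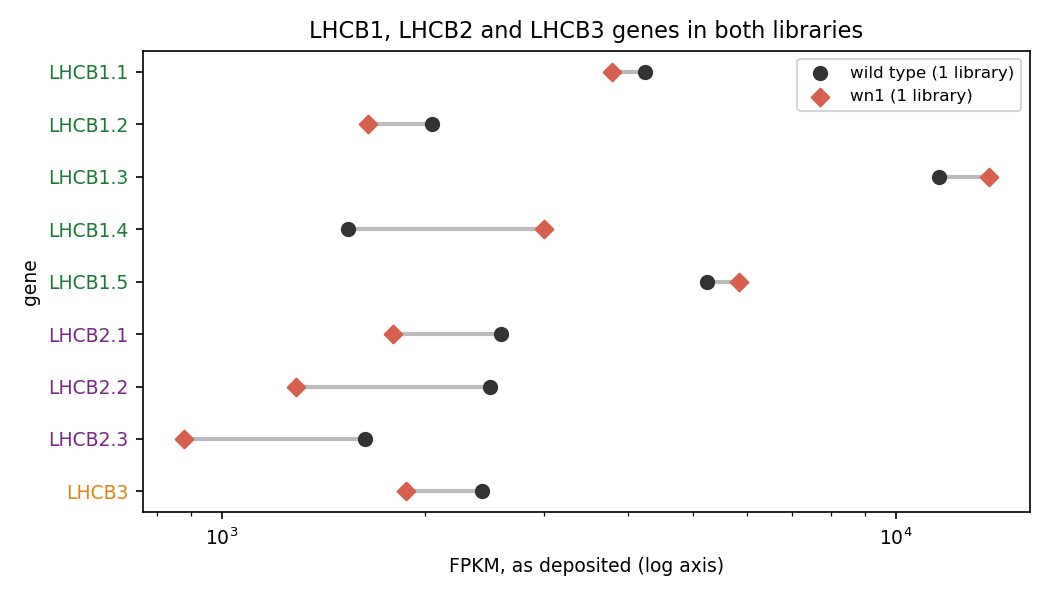
FPKM of each of the 9 genes on a log axis, with a black circle for the wild-type library and a red diamond for the wn1 library, joined by a grey line. In deposited FPKM the red diamond lies right of the circle for LHCB1.3, LHCB1.4 and LHCB1.5 and left of it for the other 6 genes, and in the all-row scaling it would lie left of it for all 9.

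As deposited, none of these differences reached 2-fold. Of all 18788 genes tested, those whose mean over both libraries reached 1 FPKM, 3.67% were at least 2-fold higher in wn1 and 3.65% at least 2-fold lower, against 0 of the 9 genes in each direction. Other scalings added calls: LHCB1.4 was at 1.09 with protein-coding rows brought to a common total, and in the all-row scaling 6 of the 9 lay below -1, all but LHCB1.3, LHCB1.4 and LHCB1.5. At 1.5-fold, 1 of the 9 was higher (LHCB1.4), where the share over all genes was 11.3%, and 2 were lower (LHCB2.2 and LHCB2.3), where it was 9.94%. The 9 genes had a median difference of -0.32, against 0.03 over all genes. Highly expressed genes in general were shifted in the same direction. Among the 87 nuclear protein-coding genes whose mean reached 1000 FPKM, which include the 9, the median was -0.29, 24.1% lay 1.5-fold or more below the wild type and 5.75% as far above it. Read against that share, 2 of 9 lower is near the background of genes of that level.

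Summed, the 9 genes had 33760.3 FPKM in the wild type and 33846 in wn1, and differed by 0.0037, which was -0.025 after centring on the median of all genes and -1.01 in the all-row scaling. They held 4.01% of the FPKM of all nuclear protein-coding genes in the wild type and 4.08% in wn1. The near-equality of the totals came from members on both sides of 0, and the sum of the other 8 was at -0.14 without LHCB1.3 and at 0.06 without LHCB2.2. Within the total, LHCB1 took 72.9% in the wild type and 82.8% in wn1, LHCB2 took 19.9% and 11.7%, and LHCB3 took 7.20% and 5.53%. LHCB1.3 alone made up 34.2% and 40.6%, and LHCB1.4 went from 4.56% to 8.88%. These shares are ratios within a library and are the same in every scaling. The widest spread was between LHCB1.4 and LHCB2.2, whose ratio was 0.618 in the wild type and 2.34 in wn1. LHCB1.4 and LHCB1.5 together went from 20.1% to 26.1% of the total, and the LHCB1.1 to LHCB1.3 cluster from 52.8% to 56.7%.

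**Figure D3:**
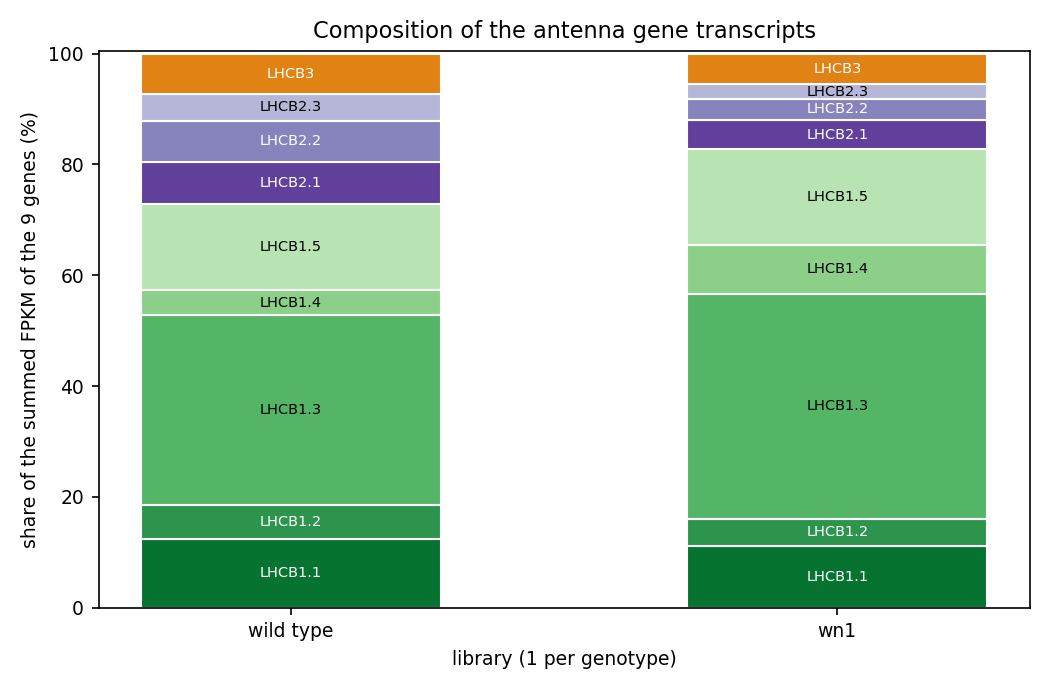
Share of the summed FPKM of the 9 genes that each gene took in the wild-type and the wn1 library, as stacked bars from 0% to 100% with LHCB1 in green, LHCB2 in purple and LHCB3 in orange. The purple part narrows from 19.9% in the wild type to 11.7% in wn1 and the green part widens from 72.9% to 82.8%.

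Related antenna genes did not show the LHCB2 pattern as a list. The photosystem I antenna genes LHCA1 to LHCA6 were all slightly below 0 as deposited, from -0.30 to -0.10, though 2 of 6 were above 0 when protein-coding rows were brought to a common total. Below 0 as deposited lay 47.1% of all genes tested and 66.7% of nuclear protein-coding genes with a mean of at least 1000 FPKM. LHCA1 had 3371 FPKM in the wild type and 3056 in wn1, LHCA2 had 2512 and 2291, LHCA3 had 2253 and 1836, and LHCA4, the highest of them, had 4327 and 3939. LHCA5 and LHCA6, which occur in low amounts, had 103 and 154 FPKM against 96.4 and 141. Their sum was 12719 FPKM in the wild type and 11359.7 in wn1, and differed by -0.16, which is smaller in size than those of LHCB2 and LHCB3.

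The minor antenna proteins, which sit as monomers between the trimers and the core, lay close to 0 in most cases. LHCB4.1 had 1223 FPKM in the wild type and 1311 in wn1, LHCB4.2 had 1691 and 1336, and LHCB5 had 2253 and 2248. LHCB6, which links a trimer to the core, had 1872 and 1535. LHCB4.3, a minor form of the LHCB4 protein, had 35.8 and 30.7, and the weakly expressed LHCB7 had 22.2 and 39.6, a difference of 0.80. The list of 6 had a median of -0.11 as deposited and 0.02 when protein-coding rows were brought to a common total. Thus 1 of 6 lay 1.5-fold or more above the wild type and 0 of 6 as far below it, where the shares over all genes were 11.3% and 9.94%.

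The subunits through which LHCII docks to photosystem I had, among the related lists chosen here, the median closest to that of LHCB2, -0.66 against -0.89. PSAH2 had 1549 FPKM in the wild type and 840 in wn1, and differed by -0.88, while PSAL had 1736 and 996 and differed by -0.80. PSAO had 1666 and 1194 and PSAH1 had 1487 and 1038. All 4 were below 0 in every scaling, and 2 of 4 were at least 1.5-fold lower, where the share among genes of that level was 24.1% and 66.7% of them lay below 0. The machinery that brings antenna proteins to the thylakoid went the other way as deposited. All 5 of its genes were above 0, as were 9938 of all 18788 genes tested. Their median of 0.47 was -0.51 in the all-row scaling, still above the median of all genes there. CPSRP54, the GTPase of the chloroplast signal recognition particle, had 102 FPKM in the wild type and 179 in wn1, and differed by 0.81. The membrane insertase ALB3 had 203 and 259.8.

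Genes of state transitions, of the chlorophyll b cycle and of antenna turnover were followed in 3 lists. The state transition kinases and phosphatases STN7, STN8, TAP38 and PBCP all lay within 1.5-fold, and STN7, the kinase that phosphorylates LHCII, had 95.1 FPKM in the wild type and 84.7 in wn1. Chlorophyll b is a pigment that LHCII needs. Of 4 genes of the chlorophyll b cycle, NYC1, a chlorophyll b reductase, had 31.9 and 58.4 FPKM, a difference of 0.85. CAO, which makes chlorophyll b, had 209 and 183. Of 3 turnover genes, SGR1, the stay-green protein that binds LHCII, had 33.9 and 22.0 and SGR2 had 2.91 and 1.58. Both were at -0.60 and past 1.5-fold, where the share over all genes was 9.94%. FTSH6 was listed at 0 in the wild-type library and had 0.145 in wn1.

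**Figure D4:**
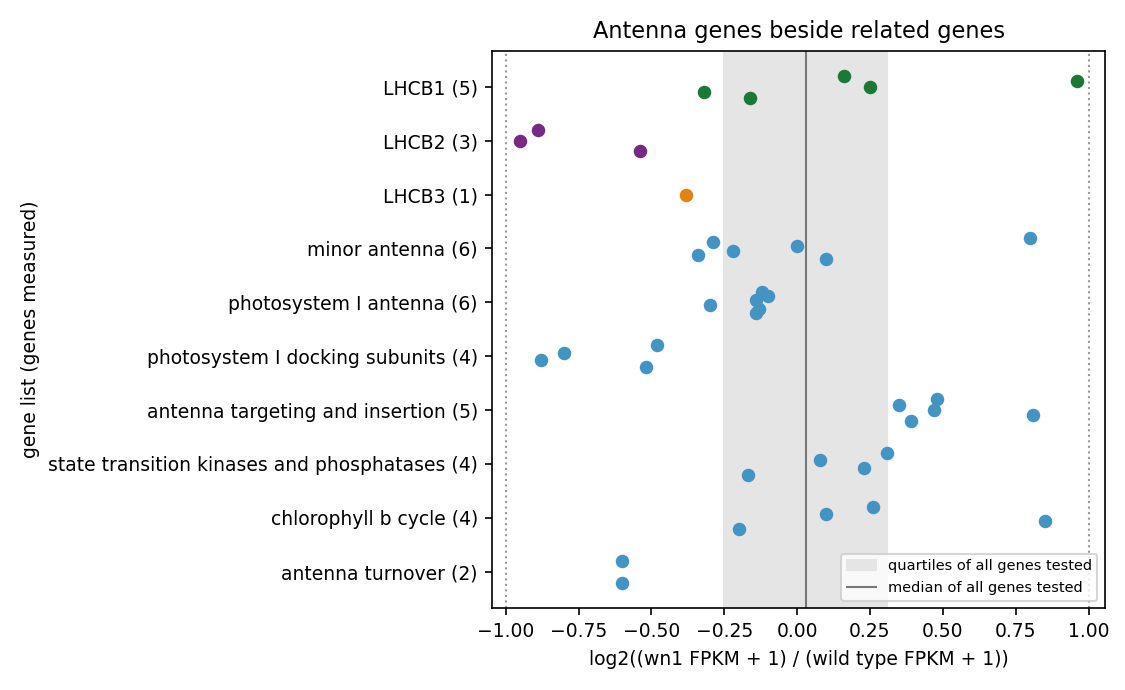
Log2 difference of FPKM + 1, wn1 minus wild type, for each measured gene of the subfamilies and of 7 related lists, 1 point per gene, with the quartiles of all 18788 genes as a grey band from -0.25 to 0.31 and dotted lines at 2-fold. In deposited FPKM, LHCB2 and the docking subunits lie left of the band, and the LHCB1 points spread from -0.32 to 0.96. In the all-row scaling the median of all genes moves left from 0.03 to -0.83. The points move left too, though not all by the same amount. The median of the 9 genes goes from -0.32 to -1.32 and that of antenna turnover from -0.60 to -1.34.

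Known regulators of LHCB transcription spread from -2.58 to 1.99, more widely than the 9 genes with -0.95 to 0.96. Of 17 listed, 16 passed the filter on low values, and among these 5 were at least 2-fold higher in wn1 and 4 at least 2-fold lower, against 3.67% and 3.65% of all genes. The activators GLK1 and GLK2, which bind promoters of antenna genes, had 72.8 and 147 FPKM in the wild type and 11.3 and 46.9 in wn1. The phytochrome-interacting factors PIF3 and PIF4 had 46.6 and 66.0 FPKM against 19.6 and 31.0, PIF5 had 149.5 and 87.0, and PIF1 had 27.2 and 22.8. Members of the list with lower FPKM thus include both activators and repressors of greening.

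Higher in wn1 as deposited were the light-signalling factor HY5, at 26.5 and 109 FPKM, its relative HYH, at 74.3 and 256, and the GATA factors CGA1, at 8.57 and 35.2, and GNC, at 21.9 and 45.1. The clock factor LHY had 222 FPKM in the wild type and 532 in wn1, and differed by 1.26, while its partner CCA1, first isolated as a protein binding an LHCB1 promoter, had 224 and 266. The evening clock gene TOC1 had 9.30 and 17.5 FPKM. The hour of harvest is unknown here, and its part in the antenna values was not tested. GUN1, of plastid-to-nucleus signalling, had 160.0 and 220.0 FPKM, the G-box factor GBF1 had 68.6 and 72.6, and BBX21 had 66.6 and 48.7. ABI4 had 0.254 FPKM in the wild type and an entry of 0 in wn1.

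**Figure D5:**
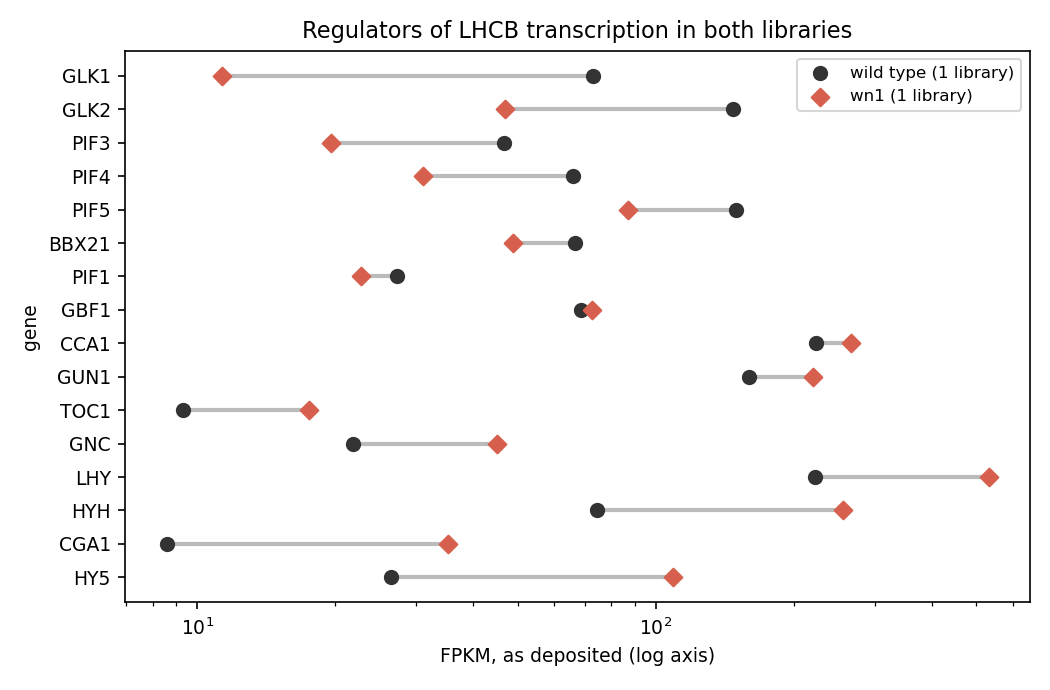
FPKM on a log axis of the 16 measured regulators of LHCB transcription, ordered by their difference, with a black circle for the wild type and a red diamond for wn1. GLK1, at the top, has 72.8 FPKM in the wild type and 11.3 in wn1, and HY5, at the bottom, has 26.5 and 109.

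Promoters are shown for the highest member, for the member with the largest positive difference and for the LHCB2 genes, which were lower together. They were read from TAIR10.1 as the 250 bases before the annotated transcript start, on the strand of the gene, at chr1:10477635-10477884 (plus) for LHCB1.3, chr2:14524357-14524606 (plus) for LHCB1.4 and chr2:1824481-1824730 (minus) for LHCB2.1. For LHCB2.2 the window is chr2:1800473-1800722 (minus) and for LHCB2.3 chr3:10255691-10255940 (plus). Capitals mark matches on either strand to the motifs searched. These were CCAATC, a motif of GLK factors, CACGTG, the G-box, GATAAG, the I-box, AAAAATCT and AACAATCT, bound by CCA1, AAAATATCT, the evening element, and TATAAA, the TATA box.
LHCB1.3: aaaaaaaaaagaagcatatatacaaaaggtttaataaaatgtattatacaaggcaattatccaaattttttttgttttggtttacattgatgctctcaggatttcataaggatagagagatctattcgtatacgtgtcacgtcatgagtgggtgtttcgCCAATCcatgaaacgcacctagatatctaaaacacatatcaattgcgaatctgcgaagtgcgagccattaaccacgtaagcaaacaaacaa
LHCB1.4: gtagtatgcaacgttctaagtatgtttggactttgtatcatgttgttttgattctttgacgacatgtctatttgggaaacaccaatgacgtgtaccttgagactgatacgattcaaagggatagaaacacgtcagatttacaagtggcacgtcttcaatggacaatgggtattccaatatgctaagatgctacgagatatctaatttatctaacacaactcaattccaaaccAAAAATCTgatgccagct
LHCB2.1: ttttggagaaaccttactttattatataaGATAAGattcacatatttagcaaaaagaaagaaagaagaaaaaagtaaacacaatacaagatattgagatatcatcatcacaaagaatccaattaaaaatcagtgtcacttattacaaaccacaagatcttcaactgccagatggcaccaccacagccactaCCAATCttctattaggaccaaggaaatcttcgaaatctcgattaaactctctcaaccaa
LHCB2.2: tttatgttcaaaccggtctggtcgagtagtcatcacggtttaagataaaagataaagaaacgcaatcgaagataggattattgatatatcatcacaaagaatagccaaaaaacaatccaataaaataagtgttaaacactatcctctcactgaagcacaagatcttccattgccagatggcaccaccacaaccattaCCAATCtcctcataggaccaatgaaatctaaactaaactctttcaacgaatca
LHCB2.3: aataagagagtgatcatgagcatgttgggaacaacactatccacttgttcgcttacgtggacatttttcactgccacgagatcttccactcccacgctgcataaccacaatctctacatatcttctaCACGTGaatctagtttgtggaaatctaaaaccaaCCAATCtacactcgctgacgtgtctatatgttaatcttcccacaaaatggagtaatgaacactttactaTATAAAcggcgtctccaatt

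CCAATC was found in the windows of all 3 LHCB2 genes, 59 bases before the start in LHCB2.1, 53 in LHCB2.2 and 89 in LHCB2.3. It was also found in LHCB1.3, 91 bases before the start, and in LHCB1.5 at 89, and not in the windows of the other 4 genes. Among 26684 nuclear protein-coding genes with such a window, 10.2% held it. AAAAATCT was found in LHCB1.1, 78 bases before the start, and in LHCB1.4 at 18, against 6.70% of all windows. CACGTG was found in LHCB2.3 alone, against 6.66% of windows, GATAAG in LHCB2.1 alone, against 12.3%, and TATAAA in 3 of the 9, against 47.6%, while AACAATCT and AAAATATCT were in none of the 9, against 1.84% and 2.38%. LHCB2.1 and LHCB2.2 share a run of 20 bases, tgccagatggcaccaccaca, which begins 86 and 80 bases before their starts. The annotated starts lie from 55 to 259 bases before the start codon, so the windows do not cover the same part of each gene. In a second window of 500 bases before the start codon, CCAATC was in 6 of the 9 genes, against 21.3% of genes. AAAAATCT was in 4 there, LHCB1.1, LHCB1.3, LHCB1.4 and LHCB2.3, against 13.2%. TATAAA was in 7 of the 9 there, against 64.4%, and GATAAG in 4, against 23.5%. CACGTG was in 1, against 9.34%, AACAATCT in 1, LHCB1.3, against 4.50%, and AAAATATCT in 0, against 3.99%. A match is a description of letters and no measure of binding.

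By level in the 2 libraries, the gene most like LHCB1.1 was LHCA4, at a Euclidean distance of 0.06 in log2(FPKM + 1), and that most like LHCB3 was LHCA3, at 0.11. LHCB2.3 was closest to PSAH2, at 0.10, LHCB2.1 to PSBP-1, a subunit of the oxygen-evolving complex, at 0.15, and LHCB2.2 to PSBY, at 0.32. LHCB1.2 was closest to the catalase gene CAT2, at 0.10, and LHCB1.5 to the photosystem II gene PSBR, at 0.37. LHCB1.3 had no close match, with RBCS1A at 0.78. The nearest row to LHCB1.4, AT3G41768 at 0.11, is a ribosomal RNA gene, with 1505 FPKM in the wild type and 2804 in wn1.

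Genes flanking the members did not show the members' levels. On the sides of the LHCB1.1 to LHCB1.3 cluster, CARB had 35.7 FPKM in the wild type and 24.4 in wn1 and NRPA2 had 8.78 and 6.44. Beside LHCB1.4 and LHCB1.5, AT2G34410 had 6.20 and 6.01 and AT2G34450 had 11.5 and 13.8. The genes flanking LHCB2.1 and LHCB2.2, AT2G05060 and AT2G05117, were listed at 0 in both libraries, as was AT3G27680 beside LHCB2.3, whose other neighbour AT3G27700 had 8.65 and 9.05 FPKM. Next to LHCB3, MRE11 had 2.32 and 2.55 FPKM, and ATM2 had 11.4 and 30.8, a difference of 1.35 against -0.38 for LHCB3.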

How the data were processed

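The authors deposited a table of FPKM, 1 row per annotated gene, with 1 library per genotype. The submitters' processing notes name Bowtie and TAIR10. Counter, versions, filters and treatment of reads that match several genes are not stated in the sources used here. The columns were matched to samples by name, and 2 further columns of per-sample values, which match neither sample, were not used. Differences are log2((wn1 + 1)/(wild type + 1)), with a pseudocount of 1 FPKM, and the 18788 genes whose mean reached 1 FPKM formed the background. Genes were counted at 2-fold and 1.5-fold. Subfamily levels are sums of FPKM.

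The 9 members and the 16 lists with 75 other genes were chosen with earlier results of these data known. Every member was named. Of each related list, the antenna and regulator genes were all named, and otherwise genes past 1.5-fold and the highest member. A few more (SGR2, FTSH6, PSAO, PSAH1 and the single marker genes) were named after their values were seen. For each member the nearest other gene by Euclidean distance in level was named, as were the flanking genes.

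Depth was estimated from whole-fragment steps: 85.2% of 989 low ratios lay within 0.5 percent of a whole-number ratio when wn1 was taken as 1.22 times deeper than the wild type. Absolute depths came from transcripts of at least 1000 bases with values up to 0.15 FPKM. The depth and fold steps were tested on simulated data. Sequences and gene models came from RefSeq's TAIR10.1, aligned with MAFFT, and the coordinates given are those of TAIR10.1. Python 3.11.15, pandas 2.3.3, SciPy 1.17.1 and Biopython 1.88 were used.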

Additional observations from a re-analysis of the deposited data

How the results depend on the processing

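Adding 0.1 in place of 1 left the sums and the median of the 9 genes within their counting error, and could hardly move values this far above 1 FPKM. Keeping genes whose mean reached 5 FPKM, or using no filter, could not move them, since the filter does not enter these sums or this median. Scaling moved them. After centring on the median of all genes, the sum of the 9 was -0.025, LHCB1 0.16, LHCB2 -0.79 and LHCB3 -0.41. With a common total over all rows these were -1.01, -0.82, -1.77 and -1.39, and the median of the 9 was -1.32. Over nuclear rows the sum of the 9 was 0.0098 and LHCB1 0.19. Over protein-coding rows the sums were 0.13, 0.31, -0.64 and -0.25, the median of the 9 was -0.19 and that of all genes 0.14. The log2 ratio of LHCB1 to LHCB2, wn1 minus wild type, was 0.95 in every setting, since scaling a whole library cannot change it. That ratio was not among the planned results. LHCB2 and LHCB3 were below 0 in every setting. Genes at least 2-fold higher and lower, 690 and 685 as deposited, numbered 78 and 6179 with a common total over all rows and 956 and 562 over protein-coding rows. Among nuclear protein-coding genes whose mean reached 1000 FPKM, a set chosen after seeing the data, they numbered 3 and 3. At 1.5-fold over all genes tested, 2114 were higher and 1867 lower. Of the 9 genes, 0 passed 2-fold as deposited, 6 were past it downward with a common total over all rows, and LHCB1.4 was past it upward over protein-coding rows. No paired analysis was possible because each genotype had 1 library, and no library could be left out. With no replicates, counting error is the only error known here, and the division of reads among members of a subfamily was not tested.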
